A study of Mus musculus with 4 samples.

Results

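Matricellular proteins are secreted into the extracellular matrix, where they regulate how cells attach, migrate and respond to growth factors and contribute little to the structure of the matrix itself. The 9 genes examined were Sparc, Postn, Tnc, Thbs1, Thbs2, Ctgf, Cyr61, Nov and Spp1. Every non-control probe whose gene name in the deposited scanner tables equals one of these names was taken, which gave 14 probes on 23 spots. They are 9 of the 19822 genes that could be named on the array and 14 of its 41174 probes. The array uses older names for the CCN family: RefSeq now calls Ctgf Ccn2, Cyr61 Ccn1 and Nov Ccn3.

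The genes were measured in 4 cultures of dendritic cells (DCs) from the bone marrow of BALB/C mice, with 1 array for each culture. Immature DCs (imDCs) grew from marrow mononuclear cells with IL-4 at 5 ng/mL beside GM-CSF at 10 ng/mL, and the loose clusters of day 4 were selected with CD11c magnetic beads. Mature DCs (maDCs) were purified imDCs kept a further 4 to 5 days with 10 ng/mL lipopolysaccharide (LPS), a bacterial product that matures DCs. The same doses of GM-CSF and IL-4 are listed for maDCs as for imDCs. The sDCs grew from lineage-depleted haematopoietic progenitors laid on a sheet of Sca-1+CD117-Lin- mesenchymal stem cells, got LPS on day 4 at a dose that the labels do not state, and were taken on day 9. The antibody-treated sDCs differed in receiving 10 µg/mL of a neutralizing antibody against IL-10 every 2 days. The sources used here do not say how sDCs were parted from the stromal sheet, how old the mice were or how many mice stood behind each culture. For the sDC cultures no dose of GM-CSF or IL-4 is listed. LPS-free cultures of the age of the maDCs or sDCs are not analysed here.

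SPARC binds collagen and helps to assemble collagen fibrils, periostin (Postn) links collagen with other matrix proteins, and tenascin-C (Tnc) is a large glycoprotein of remodelling matrix that can signal through TLR4. Thrombospondins 1 and 2 bind CD36 and CD47, restrain the growth of blood vessels and, for thrombospondin 1, release active TGF-beta from its latent form. The CCN proteins bind integrins; Ctgf and Cyr61 are widely used readouts of the transcriptional coactivators YAP and TAZ. Osteopontin (Spp1), an integrin and CD44 ligand, is made by macrophages and DCs as well as by bone cells, whereas most of the others are classically products of fibroblasts, mesenchymal cells or blood vessel cells.

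Values are given as spot intensities, background-subtracted by the scanner software and not yet scaled between arrays, and as levels, which are log2 intensities less the 75th percentile of log2 intensity on the same array. A difference is between 2 levels of the same probe, in log2 units. Because probes differ in how well they hybridise, no level is set against that of another probe, apart from the summed levels of marker lists. A summed level is the log2 of the added intensities of a list, each scaled to its array's 75th percentile. It therefore leans on the probes that hybridise best. Genes were counted where they differed by at least 2-fold, a log2 difference of 1. With 1 array for each culture there is no spread between cultures, so no test was possible and none is reported. For scale, probes spotted 10 times on each array had a median SD between spots of 0.047 to 0.059, which covers spotting and scanning only. It rests on the 162 to 172 of 245 such probes whose spots were all well above background, so it does not cover dim probes. Apart from that of Spp1, each probe of the 9 genes had 1 spot. The imDC array lay on another slide, scanned apart from the other 3, so in either comparison with imDCs the group and its slide cannot be told apart. Between 61.2% and 69.7% of the 43379 non-control spots of an array were well above background. If only 1 array of a pair had a probe above background, the dim array was given a stand-in level. That was either the probe's own signal or the lowest level of any probe above background there, whichever was larger. The difference is then written as "at least". Where the stand-in was not below the other array, no difference is given, so counts can miss genes that fell below background. All such bounds hold for the scanner software's background correction and can be smaller under another.

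Compared with imDCs, sDCs had 7 of the 9 genes at least 2-fold higher and 1 at least 2-fold lower, with Thbs1 in between. Of all 15037 genes with a value in that comparison, 41.5% differed at least 2-fold, 25.4% being higher and 16.1% lower. The median difference was 5.95 over the 9 genes and 0.21 over all genes. Compared with maDCs, sDCs had 8 of the 9 at least 2-fold higher and 1 lower, where 31.0% of 14601 genes differed, 14.2% being higher and 16.8% lower. The medians were 6.44 over the 9 genes and 0.03 over all genes. These comparisons share the sDC array, so they are not independent of each other. In both, sDCs differ at once in stroma, starting cells and listed cytokines, which cannot be told apart. In bulk RNA, fewer cells of a type and less RNA per cell cannot be told apart.

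**Figure D1:**
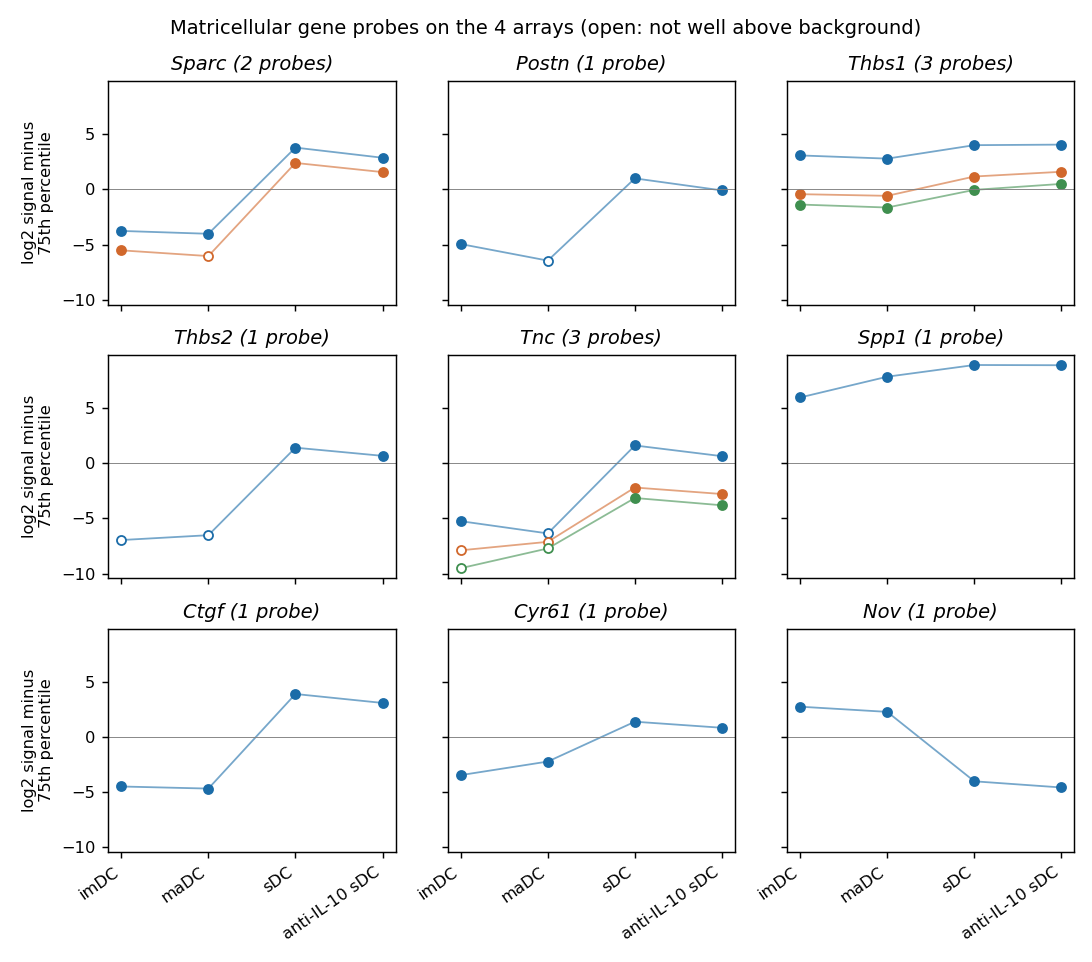
Level of each of the 14 probes (log2 intensity less the array's 75th percentile, vertical axis) on the imDC, maDC, sDC and anti-IL-10 sDC arrays, 1 panel per gene and 1 coloured line per probe, with open points where the probe was not well above background; lines join the arrays for legibility and 0 marks the 75th percentile. Every probe of Sparc, Postn, Tnc, Thbs2, Ctgf and Cyr61 sits higher on both sDC arrays than on either DC array without stroma, while Nov sits the other way round. The dimmer Tnc probes stay below 0 on every array.

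Sparc was measured by 2 probes. The sequence of the brighter one is shown because its match spans 2658 bases of the genome for 60 bases of probe, so that it crosses an exon boundary and reads spliced RNA.
Sparc, chr11:55209449-55212106 (mm9), minus strand: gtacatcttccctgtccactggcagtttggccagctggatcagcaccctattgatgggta
Its intensity was 147 in imDCs, 91.8 in maDCs, 18148 in sDCs and 9713 in antibody-treated sDCs, or levels of -3.76, -4.02, 3.79 and 2.87. Both sDC arrays were therefore high, and both other arrays were dim but above background. The difference was 7.55 for sDCs over imDCs (187-fold) and 7.81 for sDCs over maDCs (225-fold), the latter being 7.02 under another background correction, normexp. The other Sparc probe (chr11:55208013-55208072) gave intensities of 43.4, 22.6, 6930 and 3947 in the same order, with the maDC value not well above background. Its sDC to imDC difference was 7.93 (243-fold), so the 2 probes gave the same picture.

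Periostin RNA was read by 1 probe under its name (chr3:54194483-54194542, mm9, plus strand). Its intensity was 64.7 in imDCs, 17.1 in maDCs, where it was not well above background, 2622 in sDCs and 1251 in antibody-treated sDCs. The sDC level exceeded that of imDCs by 5.95 (61.7-fold) and that of maDCs by at least 6.44 (at least 87.0-fold). Under normexp the differences were smaller, 4.94 and 4.91, so this bound holds for the scanner software's background correction only. A further probe that the array lists under a clone name, A630052E07Rik, which RefSeq gives as a synonym of Postn, was not well above background on any of the 4 arrays and is not counted among the 14.

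Tenascin-C was read by 3 probes, and 2 of them are shown because their listed span on the genome is not the 60 bases of the probe.
Tnc, chr4:63620819-63620864 (mm9), minus strand: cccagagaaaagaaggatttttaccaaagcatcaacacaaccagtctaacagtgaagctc
Tnc, chr4:63674248-63675011 (mm9), minus strand: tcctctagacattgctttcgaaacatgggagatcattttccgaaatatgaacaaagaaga
The first and brightest gave 52.5 in imDCs, 18.2 in maDCs (not well above background), 4010 in sDCs and 2068 in antibody-treated sDCs. Its sDC level was 6.86 above that of imDCs (116-fold) and at least 7.06 above that of maDCs (at least 133-fold). The second gave 2.73, 7.06, 147 and 94.8, and the third (chr4:63645878-63645937) gave 8.42, 10.7, 285 and 192, both with only the 2 sDC arrays well above background. All 3 probes therefore had signal in sDCs, and the brightest alone had signal in imDCs. For sDCs over maDCs these 2 probes gave at least 4.88-fold and at least 9.47-fold. The size for Tnc depends on the processing: the differences from imDCs and maDCs were 5.70 and 5.52 under normexp, and 5.08 and 3.24 for the median over its probes.

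Thrombospondin 2 was above background on the sDC arrays alone, and the sequence of its only probe is shown because it, too, crosses an exon boundary.
Thbs2, chr17:14804526-14805789 (mm9), minus strand: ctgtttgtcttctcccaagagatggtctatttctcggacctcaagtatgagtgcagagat
Its intensity was 16.1 in imDCs and 16.2 in maDCs, neither well above background, against 3489 in sDCs and 2107 in antibody-treated sDCs. The sDC level was at least 331-fold that of imDCs (a difference of at least 8.37) and at least 116-fold that of maDCs (at least 6.85). These bounds, too, hold for the scanner software's background correction: under normexp the differences were 5.97 and 5.22. No difference between imDCs and maDCs can be given.

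Thrombospondin 1, the paralogue that macrophages and platelets also carry, had a different pattern, with signal on all 4 arrays. The longest-spanning of its 3 probes is shown for comparison with Thbs2.
Thbs1, chr2:117946712-117946892 (mm9), plus strand: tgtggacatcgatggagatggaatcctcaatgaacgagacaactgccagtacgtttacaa
The brightest probe (chr2:117951775-117951834) gave 16808 in imDCs, 10300 in maDCs, 21121 in sDCs and 22158 in antibody-treated sDCs. Its sDC level was 0.94 above that of imDCs, just under the 2-fold mark, and 1.22 above that of maDCs (2.34-fold). The other probes gave larger differences: 1.60 and 1.75 for the probe at chr2:117948330-117948389, and 1.32 and 1.60 for the probe shown. Whether Thbs1 counts as 2-fold higher in sDCs than in imDCs thus depends on the probe, while all 3 probes put it higher in sDCs than in either other DC.

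Among the CCN genes, Ctgf and Cyr61 were higher in sDCs, and Nov was lower. Ctgf (chr10:24318281-24318340, mm9, plus strand) gave 89.1 in imDCs, 58.6 in maDCs, 19531 in sDCs and 11295 in antibody-treated sDCs. The difference was 8.38 for sDCs over imDCs (334-fold) and 8.57 for sDCs over maDCs (379-fold), or 7.58 and 7.34 under normexp. In order from the highest difference, Ctgf was number 12 of 15037 genes against imDCs and number 3 of 14601 against maDCs. Sparc, Tnc, Thbs2 and Postn were numbers 7, 13, 14 and 20 in the comparison with maDCs, with bounds ranked at their bound.

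Cyr61 (chr3:145310187-145310246, mm9, minus strand) differed from Ctgf in being higher in maDCs than in imDCs. Its intensity was 182 in imDCs, 321 in maDCs, 3428 in sDCs and 2380 in antibody-treated sDCs, or levels of -3.45, -2.22, 1.39 and 0.84. The maDC level was 1.24 above that of imDCs (2.36-fold), and the sDC level was 4.84 above that of imDCs (28.7-fold) and 3.61 above that of maDCs (12.2-fold). Under quantile normalization and in the authors' table the maDC to imDC difference was under 2-fold, 0.90 at the lowest.

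Nov (chr15:54584204-54584263, mm9, plus strand), known as a regulator of haematopoietic stem and progenitor cells, ran opposite to its relatives. It gave 13452 in imDCs, 7226 in maDCs, 81.3 in sDCs and 55.7 in antibody-treated sDCs, and every one of these was well above background. Both DC cultures without stroma were high and both sDC cultures low. The difference was -6.76 for sDCs against imDCs (109-fold lower) and -6.29 for sDCs against maDCs (78.0-fold lower), or -5.94 and -5.48 under normexp. From the lowest difference upward, Nov was number 50 of 15037 genes against imDCs and number 75 of 14601 against maDCs.

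**Figure D2:**
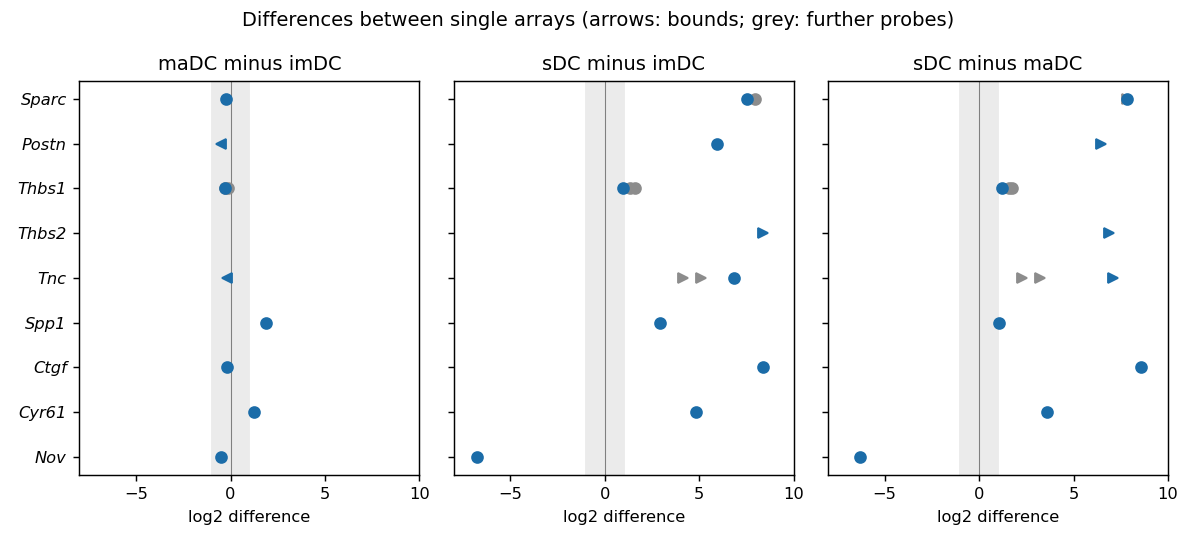
Log2 difference (horizontal axis) of each matricellular gene in 3 comparisons, with blue marks for the probe that represents the gene, grey marks for further probes, arrows for bounds and a grey band for differences under 2-fold. The marks in both sDC comparisons run from -6.76 for Nov to 8.57 for Ctgf. Those for maDCs less imDCs stay between -0.50 and 1.87, with Postn and Tnc as bounds only.

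Osteopontin had signal far above the array's 75th percentile in every culture. Its probe (chr5:104869788-104869847, mm9, plus strand) was spotted 10 times and gave a mean intensity of 124419 in imDCs, 341102 in maDCs, 627480 in sDCs and 624948 in antibody-treated sDCs. With outlier spots left out, 8, 10, 10 and 9 spots remained. They ran from 121516 to 127973, from 313349 to 359180, from 589360 to 709812 and from 579467 to 739620, so imDC, maDC and sDC spots did not overlap and the sDC and antibody spots did. The level was 1.87 higher in maDCs than in imDCs (3.67-fold), 2.94 higher in sDCs than in imDCs (7.68-fold, or 2.31 under quantile normalization) and 1.07 higher in sDCs than in maDCs (2.09-fold), the last of which was 0.86 at its lowest under other normalizations and so under 2-fold.

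The sDC values of Spp1 lie at the top of what the scanner recorded. Before background subtraction and detrending, the median Spp1 spot stood at 20.6% of the brightest spot of the imDC array, 55.9% of that of the maDC array, 99.0% of that of the sDC array and 100% of that of the antibody array. On the sDC array 5 of the 10 Spp1 spots lay within 1% of the brightest spot, and on the antibody array all 10 did, against 0 on the imDC and maDC arrays. The scanner software marked no spot as saturated. The order of sDCs and antibody-treated sDCs therefore cannot be read for Spp1, and its differences of sDCs over the other DCs may be understated.

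**Figure D3:**
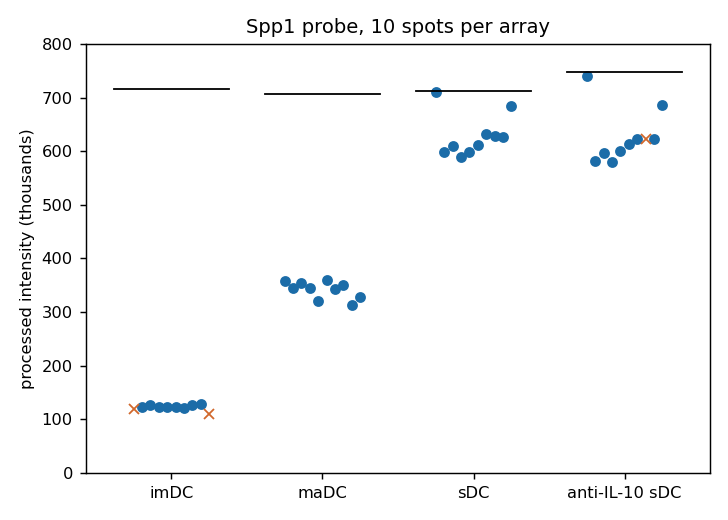
Processed intensity (linear axis from 0) of the 10 Spp1 spots on each array: blue points are spots that were used, orange crosses spots marked as outliers and left out, and black lines the brightest spot of any gene on that array. The spots used on the imDC and maDC arrays end at 127973 and 359180, far below the line, whereas on the sDC and antibody arrays they reach 709812 and 739620, close to it.

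The comparison of maDCs with imDCs asked what longer culture with LPS changed without stroma, and 2 of 8 genes were called as differing by 2-fold. Among the 8 genes with a value, Spp1 and Cyr61 were at least 2-fold higher and 0 were called lower, where Postn and Tnc had bounds only. Of all 14108 genes 32.3% differed, 21.6% being higher and 10.8% lower. The median difference was -0.23 over the 8 genes and 0.18 over all genes. Nov differed by -0.48, Thbs1 by -0.29 and Sparc by -0.26. Ctgf differed by -0.18, which turns to 0.25 under normexp. Postn and Tnc, dim in maDCs, had bounds of -0.50 and -0.19, so they were lower by at least these amounts. The bounds use the lowest level above background in maDCs, -5.44. By their own dim signals, Postn went from -4.95 in imDCs to -6.45 in maDCs and Tnc from -5.25 to -6.36. Whether either was 2-fold lower cannot be told from the bounds.

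The antibody comparison asked what neutralizing IL-10 during sDC formation did. Of the 9 genes, 8 were below 0 in antibody-treated sDCs. Spp1 is among them at only -0.03, at the scanner's limit, where its direction cannot be read. The share of all genes below 0 was not counted, and their median was also slightly below 0. Of the 9 genes, 1 (Postn) passed 2-fold, whereas 2.12% of all 14393 genes did, 1.26% being lower and 0.862% higher. The differences were -1.09 for Postn (2.13-fold), -0.98 for Tnc, -0.92 for Sparc (1.90-fold), -0.81 for Ctgf and -0.75 for Thbs2. Nov and Cyr61 stood at -0.57 and -0.55. The median was -0.75 over the 9 genes and -0.03 over all genes. From the lowest difference upward, Postn was number 138, Tnc number 207 and Sparc number 273 of 14393 genes.

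The remaining pair moved little: Thbs1 differed by 0.05 on its brightest probe and by 0.43 and 0.54 upward on the other 2, and Spp1 by -0.03 at the scanner's limit. Both Sparc probes were lower in antibody-treated sDCs, at -0.92 and -0.83, and so were the 3 Tnc probes, at -0.98, -0.59 and -0.66. The antibody comparison, too, rests on the sDC array, as the sDC comparisons above do. The stromal marker genes were lower as well: all 15 with a value were below 0, with a median of -0.76 and a range of -0.98 to -0.04, and 0 of them passed 2-fold. Col3a1, Dcn and Pdgfra were the lowest of them at -0.98, -0.97 and -0.97. Platelet markers were lower too, 8 of 8 below 0 with a median of -0.79, and 2 of them passed 2-fold.

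**Figure D4:**
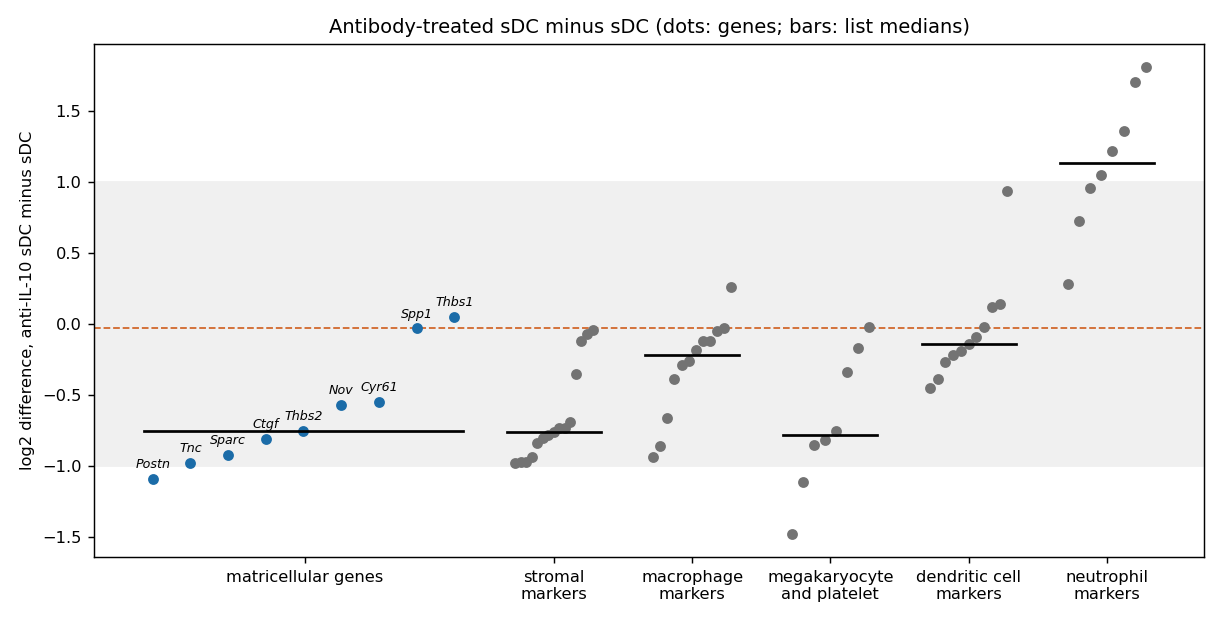
Log2 difference of antibody-treated sDCs less sDCs for the 9 matricellular genes (blue, named) and for genes of 5 marker lists (grey), 1 dot per gene. Black bars mark list medians, the dashed line the median of all genes at -0.03, and the grey band differences under 2-fold; the matricellular median of -0.75 lies beside those of the stromal (-0.76) and platelet (-0.79) markers.

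Marker genes of cell types also differed in the sDC comparisons, in directions that varied by list. Of 16 stromal markers, 13 were well above background in imDCs, 12 in maDCs and 15 in each sDC culture. Pdgfra, Col3a1 and Lum were not above background in imDCs, nor were Pdgfra, Cxcl12, Lepr and Prrx1 in maDCs, whereas Lepr alone was not in the sDC cultures. The summed level of the 16 was 7.26, 7.15, 7.75 and 7.02 in imDCs, maDCs, sDCs and antibody-treated sDCs, on a log2 scale. Most of the imDC and maDC sum comes from Thy1 (levels of 6.74 and 6.63) and Acta2 (5.46 and 5.27), both of them lower in sDCs (4.72 and 4.61), so the sum does not follow the other members. In sDCs against imDCs 13 of the 16 were at least 2-fold higher and 1 lower (median 4.56), and against maDCs 11 of 15 higher and 1 lower (median 5.14). Col3a1, a fibrillar collagen, was higher by at least 12.05 and by 8.61, Dcn, a collagen-binding proteoglycan, by 10.16 and 5.14, and Col1a1 by 8.16 and 8.25. The Col3a1 bound, like those of the other lists below, holds for the scanner software's background correction only. Thy1 was lower, at -2.03 against imDCs. The part of stromal RNA in the matricellular differences was not tested.

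The DC and macrophage lists went opposite ways. Of 12 DC markers, 11 were at least 2-fold lower in sDCs than in imDCs and 11 than in maDCs, with medians of -4.63 and -5.44. Itgax, the gene of CD11c, differed by -4.53 and -5.30, the MHC class II gene H2-Aa by -6.99 and -6.80, and Irf8 was higher than in imDCs by 1.65. They remained above background in sDCs with the exception of Irf4, and their summed levels were 8.35, 8.98, 5.65 and 5.51. All 12 macrophage markers were at least 2-fold higher in sDCs than in imDCs and 10 of 12 than in maDCs (medians 3.63 and 2.62), and 12 of 12 were above background in sDCs, where their summed level was 9.14 against 5.88 in imDCs and 8.22 in maDCs. Platelet markers, of interest because platelets carry thrombospondin 1 and SPARC, were mixed: against imDCs, sDCs had 2 of 8 higher and 2 lower, and against maDCs 2 higher and 1 lower (medians -0.60 and 0.26). Their summed levels were 4.83 in imDCs, 6.82 in maDCs, 6.68 in sDCs and 6.33 in antibody-treated sDCs, of which Pf4 makes up most (4.38, 6.77, 6.55 and 6.22). The part of these cell types in the matricellular differences was not tested.

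The genes with profiles most like each matricellular gene over the 4 arrays were taken from the 12942 genes above background on all of them, by the root mean square difference between centred profiles. This could be done for the 6 of 9 genes that qualify, and it describes 4 arrays only. For Sparc they were the collagen genes Col1a2 (0.19) and Col1a1 (0.30) with the collagen chaperone gene Serpinh1 (0.24). For Ctgf they were Col1a1 (0.13), Sparc (0.43) and Col1a2 (0.61). Cyr61 was most like Adgra2 (0.10), Gpx7 (0.14) and Mmp11 (0.15), where Mmp11 encodes a matrix metalloproteinase. Nov was most like the MHC class II gene H2-Aa (0.19), Slc28a3 (0.30) and the cytokine-induced signalling inhibitor gene Cish (0.30). The flatter profiles of Thbs1 (Tbck 0.01, Ugdh 0.02, Wbp1l 0.02) and Spp1 (Ust 0.04, Cyp4v3 0.05, Tmem189 0.05) had the closest partners. The Spp1 profile includes both sDC arrays, where its signal lay at the scanner's limit, so its shape and partners may depend on that limit.

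Relatives of the 9 genes were described from a list of 21 that holds the SPARC family, further thrombospondins and tenascins, the remaining CCN genes and relatives of osteopontin. In sDCs against imDCs 11 of 14 with a value were at least 2-fold higher and 1 was lower (median 2.45). The CCN gene Ccn4 (Wisp1 on the array) was higher by 6.30, Fstl1, a SPARC family member, by 5.16, Ccn5 (Wisp2) by 4.97 and Sparcl1 by at least 3.87. Against maDCs 4 of 13 were higher and 2 lower (median 0.62), with Ccn4 higher by at least 5.05, Ccn5 by at least 3.75 and Sparcl1 by at least 2.03, and the tenascin gene Tnn lower, at -3.0.

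In maDCs against imDCs 5 of 7 relatives with a value were at least 2-fold higher and 0 lower (median 2.10). Ccn4 and Ccn5, above background in imDCs and not in maDCs, had no value there. Fstl1 was higher by 5.08, Tnn by at least 4.51, Thbs4 by 2.39 and Thbs3 by 2.10. In antibody-treated sDCs 0 of 13 were at least 2-fold higher and 1, Thbs4, was lower, at -1.21 (median -0.76).

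Receptor genes of matricellular proteins were above background in 20 of 22 in imDCs and maDCs and in 21 of 22 in both sDC cultures. Of these, 9 of 20 with a value were at least 2-fold higher in maDCs than in imDCs (median 0.83), 12 of 21 higher with 1 lower in the sDC to imDC comparison (median 1.18), and 7 of 21 higher and 4 lower in sDCs than in maDCs (median 0.55). Itga8, whose integrin binds osteopontin and tenascin-C, was higher in sDCs by 9.26 than in imDCs and by at least 7.96 than in maDCs. Itga9, another integrin subunit that binds both, was higher by at least 6.80 and by 4.23, and the scavenger receptor genes Lrp1 and Stab1 were higher than in imDCs by 4.58 and 6.03. Itgb3, which encodes a partner of the alpha-v subunit, was lower, at -2.40 and -2.85.

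Of the receptor genes in maDCs against imDCs, Itgb8 was higher by 3.87, Stab1 by 3.39, Sdc4 by 3.03 and Itga9 by at least 2.57. In the antibody comparison 0 of 21 receptors passed 2-fold in either direction (median -0.09).

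Enzymes that cleave, crosslink or, for Fam20c, phosphorylate matricellular proteins were examined as a list of 14. In maDCs 10 of 13 were at least 2-fold higher than in imDCs (median 1.41), led by Adamts1 at 5.15, the membrane-bound matrix metalloproteinase gene Mmp14 at 4.66, Mmp3 at least 4.03 and Bmp1 at 2.35. In sDCs 10 of 13 were higher than in imDCs and 1 lower (median 1.78), led by Mmp3, which encodes stromelysin 1, at least 8.79, Mmp14 at 5.34, Adamts1 at 5.16 and Mmp9 at 3.63. Against maDCs 5 of 13 were higher and 4 lower (median 0.36): Mmp3 was higher by 4.76, Mmp9 by 1.84 and Plau by 1.63, and Mmp2 was lower, at -2.21. None of the 13 passed 2-fold with the antibody (median -0.15).

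The YAP and TAZ system was described because Ctgf and Cyr61 are its textbook targets. Of the 6 factor genes, Wwtr1, which encodes TAZ, was higher in sDCs than in imDCs by 4.43 and than in maDCs by 1.75. Yap1 was higher by at least 3.35 and at least 1.51, Tead2 by 2.33 and 2.77, and Tead1 by 2.05 and, under 2-fold, 0.94. All 4 with a value were thus at least 2-fold higher in sDCs than in imDCs (median 2.84) and 3 of 4 than in maDCs (median 1.63). In maDCs against imDCs 2 of 3 were higher (median 1.11), namely Wwtr1 by 2.67 and Tead1 by 1.11. With the antibody 0 of 4 passed 2-fold, and all were below 0, Yap1 at -0.87, Tead1 at -0.84, Wwtr1 at -0.63 and Tead2 at -0.54.

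Other target genes of YAP and TAZ did not all go with Ctgf and Cyr61. Of 20 listed, sDCs had 10 of 19 at least 2-fold above imDCs and 4 below (median 1.23), and 8 of 19 above and 6 below maDCs (median 0.21). Ankrd1, often used beside Ctgf and Cyr61 as a readout, was higher by at least 6.80 and at least 4.96, and Igfbp3 by at least 5.04 and at least 3.21. Rbms3 and F3 (tissue factor) were higher than in imDCs by at least 5.53 and by 3.65. Foxf2 and Gadd45b were lower than in maDCs, at -6.64 and -3.74.

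In maDCs against imDCs 9 of 17 of these targets were higher and 1 lower (median 1.61), among them Tgfb2 by 5.70, Foxf2 by 5.42, Gadd45b by 3.49 and Ptpn14 by 3.20. With the antibody 1 of 20, Fjx1, was higher, by at least 2.69, and 0 were lower (median -0.44).

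RefSeq promoters were available for 6 of the 9 genes, namely Sparc, Postn, Tnc, Thbs2, Cyr61 and Spp1. The 250 bases before the start of transcription of 1 transcript each (build GRCm38.p6, a later build than the mm9 of the probes) are shown 5′ to 3′ on the strand of the gene. Windows that overlapped the first transcribed bases of another listed start were left out, as for Tnc. Where several remained, as for Postn and Spp1, the one with the most motif matches is shown. The other window of each held 0 matches, so the matches shown were picked, unlike the shares of all windows given below. Capitals mark every match to a motif searched for on both strands.
Sparc promoter, chr11:55420081-55420330, minus strand: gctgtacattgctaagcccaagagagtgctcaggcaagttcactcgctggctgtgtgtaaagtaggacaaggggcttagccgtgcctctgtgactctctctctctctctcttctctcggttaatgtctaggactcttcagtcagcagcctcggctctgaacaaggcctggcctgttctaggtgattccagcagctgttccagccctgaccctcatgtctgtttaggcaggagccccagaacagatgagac
Postn promoter, chr3:54360857-54361106, plus strand: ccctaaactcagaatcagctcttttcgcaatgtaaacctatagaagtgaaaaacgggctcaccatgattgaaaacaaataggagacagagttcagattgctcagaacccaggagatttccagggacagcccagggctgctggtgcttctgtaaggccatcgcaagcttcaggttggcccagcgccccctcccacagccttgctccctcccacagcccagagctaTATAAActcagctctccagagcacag
Tnc promoter, chr4:64047016-64047265, minus strand: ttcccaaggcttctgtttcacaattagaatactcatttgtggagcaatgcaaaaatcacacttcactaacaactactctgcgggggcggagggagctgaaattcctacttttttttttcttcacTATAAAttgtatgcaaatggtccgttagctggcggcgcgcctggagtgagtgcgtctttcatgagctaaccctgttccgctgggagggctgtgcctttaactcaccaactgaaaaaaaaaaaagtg
Thbs2 promoter, chr17:14694263-14694512, minus strand: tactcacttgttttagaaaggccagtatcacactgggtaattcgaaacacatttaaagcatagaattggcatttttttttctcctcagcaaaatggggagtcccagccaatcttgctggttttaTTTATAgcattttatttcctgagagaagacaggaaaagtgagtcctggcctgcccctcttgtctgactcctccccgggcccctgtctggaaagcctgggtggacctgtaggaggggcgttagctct
Cyr61 promoter, chr3:145649986-145650235, minus strand: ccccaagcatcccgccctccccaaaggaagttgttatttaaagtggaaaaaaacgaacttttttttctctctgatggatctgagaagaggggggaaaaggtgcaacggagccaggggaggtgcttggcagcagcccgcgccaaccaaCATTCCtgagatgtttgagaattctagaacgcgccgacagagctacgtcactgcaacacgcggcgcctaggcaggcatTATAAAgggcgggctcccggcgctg
Spp1 promoter, chr5:104434861-104435110, plus strand: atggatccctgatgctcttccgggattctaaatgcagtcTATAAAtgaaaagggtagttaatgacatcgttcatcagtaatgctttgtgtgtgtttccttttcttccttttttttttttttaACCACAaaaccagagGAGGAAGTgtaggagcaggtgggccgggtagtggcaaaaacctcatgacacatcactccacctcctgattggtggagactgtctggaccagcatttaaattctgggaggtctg
The motifs were that of TEAD (GGAATG), the DNA-binding partners of YAP and TAZ, AP-1 (TGANTCA), the TATA box (TATAAA), RUNX (ACCACA), PU.1 (GAGGAAGT), the myeloid factor, and the CArG box bound by serum response factor. No motif overlapped another.

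The Cyr61 window held a TEAD motif on the reverse strand, from -103 to -98 counted from the base before the start, and a TATA box from -25 to -20. That TEAD motif is found in 12.6% of 32851 windows of the same length. Postn had a TATA box from -26 to -21. The letters TATAAA also lay from -126 to -121 in Tnc and, on the reverse strand, from -126 to -121 in Thbs2. They are found in 12.4% of all windows, a share that counts these letters at any position and on either strand. Spp1, the gene of the set that macrophages make in quantity, held the letters TATAAA starting at -211. It also held a RUNX motif from -128 to -123 (14.0% of windows) and the only PU.1 motif, from -113 to -106 (2.44% of windows). Sparc held none of the 6, and AP-1 (6.75% of windows) and CArG (1.47%) were in none of the windows shown. These matches describe letters in the sequence and not binding.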

How the data were processed

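The authors deposited 1 Agilent scanner table per array, with background-subtracted, detrended spot intensity from Feature Extraction 10.5.1.1 on mm9 probe positions, per the file headers; the submitters' processing notes name Agilent Feature Extraction 9.1. They also deposited a table of normalized log2 values, used as an alternative. Its values correlated with the log2 intensity of the same array at 0.997 to 1.000, and its median was 6.3 on each array. These figures do not show which normalization was used.

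From log2 of the processed intensity, each array's 75th percentile over non-control spots was subtracted. Spots marked as outliers were left out (76 to 148 per array), spots of a probe were averaged, and a probe was taken as well above background if the software marked 50% or more of its spots as such. Probes were named through RefSeq (GRCm38.p6) by accession (25097), symbol (6333) or synonym (1640), and 8104 stayed unnamed. A gene was represented by its probe of highest mean log2 signal. Python 3.11.15, pandas 2.3.3, numpy 2.4.6, matplotlib 3.10.9, R 4.3.3 and limma 3.58.1 (normexp with an offset of 50, quantile) were used, and the calculation was tested on simulated data. With 1 array per group there is no test, and the number of arrays limits the precision.

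The 9 genes and all gene lists were chosen with earlier results of these data known. All 9 were named, with up to 4 genes per related list and comparison and up to 3 per marker list by size of difference past 2-fold, and 3 per gene for likeness. The Postn probe listed under its clone name, receptors and markers named beyond this rule (Itgb3 and Stab1 in some comparisons, Col3a1, Dcn and Pdgfra with the antibody, Thy1, Irf4, Itgax, H2-Aa, Irf8, Elane, Camp, S100a8, the factor Tead1 against maDCs and the factors with the antibody) were chosen after their values were seen. The alternatives were quantile normalization, the authors' table, normexp, the median over the probes of a gene, probes above background on all 4 arrays, and thresholds of 1.5-fold and 3-fold.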

Additional observations from a re-analysis of the deposited data

How the results depend on the processing

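Of 162 member differences recomputed under alternatives, 160 kept their sign. Ctgf in maDCs against imDCs turned, and Spp1 with the antibody went from -0.03 to 0.00, both under normexp. Beyond 1.5 times, 14 moved: 11 under normexp, all toward 0 (Sparc, Postn, Tnc, Thbs2, Ctgf and Nov in sDCs), 2 of Tnc with the median over probes and Spp1 in sDCs against imDCs (2.31 under quantile normalization). Counts of the 9 genes stayed within 1.5 times in 47 of 56. The count at least 2-fold higher in maDCs than in imDCs went from 2 to 1 with quantile normalization, 1 with the authors' table and 1 at 3-fold. With probes above background on all 4 arrays, which leaves 6 of the genes, it went from 7 to 4 for sDCs against imDCs and from 8 to 5 for sDCs against maDCs. The count lower with the antibody went from 1 to 2 with the authors' table, 0 with that filter, 5 at 1.5-fold and 0 at 3-fold. Spp1 in sDCs against maDCs lay between 0.86 and 1.07. Of 728 list counts, 642 stayed within 1.5 times.

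Over all genes, quantile normalization moved the share of 2-fold calls that were higher in maDCs than in imDCs from 66.7% to 55.3%, and the median of all genes in sDCs against imDCs from 0.21 to 0.00. At 1.5-fold the counts of genes higher and lower were 4739 and 2817 for maDCs against imDCs (3045 and 1517 at 2-fold), 5513 and 3706 for sDCs against imDCs (3816 and 2421), 3594 and 3675 for sDCs against maDCs (2079 and 2453) and 301 and 778 with the antibody (124 and 181). At 3-fold they were 1698 and 620, 2309 and 1450, 1070 and 1503, and 52 and 50. With the antibody they were 45 and 48 under normexp and 47 and 65 with probes above background on all 4 arrays. The cause was not tested. No paired analysis was possible because each group has 1 array, and for the same reason no replicate could be left out.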

Other observations

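Neutrophil granule and calprotectin genes were lower in maDCs than in imDCs in 8 of 8 (median -6.17), with Cd177 at -8.02, and in sDCs than in imDCs in 8 of 8 (median -8.36), with Ngp at -9.21. Against maDCs sDCs had 1 of 8 higher and 5 lower (median -1.45), with Mpo at -4.09 and S100a8 higher by 2.10. With the antibody 5 of 8 were at least 2-fold higher and 0 lower (median 1.13), namely Ltf by 1.81, Ngp by 1.71, S100a9 by 1.36, Elane by 1.22 and Camp by 1.05.

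Mast cell and basophil genes were at least 2-fold higher in maDCs than in imDCs in 7 of 7 with a value (median 2.61), led by the chymase gene Cma1 at 4.54 and the IgE receptor gene Fcer1a at 4.18. In sDCs 7 of 7 were lower than in imDCs (median -4.01) and 7 of 7 lower than in maDCs (median -6.42), with Cpa3 at -7.78 and -11.32. With the antibody 2 of 5 were higher and 0 lower (median 0.99), Cma1 by 1.41 and Hdc by 1.31.

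Stromal markers were not confined to the sDC cultures: in maDCs 7 of 13 were at least 2-fold higher than in imDCs and 0 lower (median 1.28). Dcn was higher by 5.02 and Col3a1 by at least 3.45. Cxcl12, Lepr and Prrx1, not above background in maDCs, had only a bound or no value there. Macrophage markers were higher in maDCs than in imDCs in 8 of 11 and lower in 1 (median 1.35), and with the antibody 0 of 12 passed 2-fold (median -0.22). DC markers were higher in maDCs in 4 of 12 and lower in 0 (median 0.55), led by Irf8 at 2.50, and 0 of 11 passed 2-fold with the antibody (median -0.14).

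Osteoblast markers, of interest for osteopontin, had values for 3 of 6 in maDCs against imDCs (2 higher, 0 lower), for 4 in sDCs against imDCs (2 higher, 0 lower, median 0.44), for 3 in sDCs against maDCs (0 higher, 3 lower, median -1.54) and for 4 with the antibody (0 past 2-fold, median 0.04). Of 8 endothelial markers, sDCs had 2 higher and 3 lower than imDCs (median -0.01) and 1 higher and 4 lower than maDCs among 7 (median -1.08), with Pecam1 at -4.73 and -3.61. In maDCs against imDCs 3 of 7 were higher and 2 lower (median 0.44), and 0 of 4 passed 2-fold with the antibody (median -0.15). Platelet markers were higher in 1 of 8 and lower in 2 in maDCs than in imDCs (median -0.96), with Pf4 higher by 2.38, and lower in 2 of 8 with the antibody (median -0.79), Ppbp at -1.48 and Gp9 at -1.11. No cause of these differences was tested.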
